A study of Mus musculus with 12 samples.

Results

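SOCS and PIM genes are cytokine-induced genes that feed back on the signal or carry it onward, and 7 of them were examined in LSKs, the Lin- Sca-1+ c-Kit+ fraction of mouse BM that contains the HSCs. They were selected by name among the 53465 genes of the table: *Socs1*, *Socs2*, *Socs3* and *Cish* of the SOCS family, and *Pim1*, *Pim2* and *Pim3*. In all, 4 groups of 3 libraries each were compared: LSKs of untreated Tespa1+/+ littermates, of untreated Tespa1-/- mice, and of both genotypes at day 9 after a single intraperitoneal injection of 150 mg/kg 5-FU, a drug that kills cycling cells and forces the surviving progenitors to rebuild the marrow. The mutants were B6.129S-Tespa1 tm1Smoc animals, which lack functional *Tespa1* (a T-cell receptor signalling gene) in the germline and hence in every cell, backcrossed to C57BL/6 for more than 6 generations. All mice were males of 8 to 10 weeks. Whether a library came from 1 mouse or from several is not given in the sources used here, so p-values measure the spread between these libraries.

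A cytokine such as thrombopoietin, G-CSF or an interferon brings its receptor chains together, the JAK kinases bound to them become active, and STAT factors are phosphorylated and move to the nucleus. *Socs1*, *Socs2*, *Socs3* and *Cish* are among the genes that STATs switch on, and their proteins return to the receptor complex, where they block the JAK or the docking site and recruit a ubiquitin ligase through the SOCS box. *Pim1*, *Pim2* and *Pim3* are induced by the same STATs but encode serine/threonine kinases that need no further activation, promote survival and translation, and act downstream of cytokines that sustain HSCs. The levels of these transcripts are therefore commonly read beside cytokine signalling, although several of them also respond to other stimuli.

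The 12 libraries held 22118154 to 28275079 counts, and 3 counts, the limit of detection, equalled 0.106 to 0.136 CPM (read counts scaled to a common library size by TMM over the 12 libraries), which covers counting error only. *Tespa1* itself, the check of the labels, was at 51, 43.1 and 46.5 CPM in untreated Tespa1+/+ libraries and at 34.5, 34.9 and 34.9 CPM in untreated Tespa1-/- libraries. After 5-FU it was at 47.1, 55 and 57.2 CPM in Tespa1+/+ and at 20.7, 19.6 and 17.2 CPM in Tespa1-/- LSKs. Every Tespa1-/- library was thus below every Tespa1+/+ library of its treatment, but the transcript was not absent. The untreated difference was small (1.34-fold, adjusted p = 0.0316), and its call was lost in 5 of 6 fits that left out a library (adjusted p up to 0.14), whereas that after 5-FU was 2.76-fold and held in all 6 (adjusted p = 9.4e-05). *Kit*, which encodes c-Kit, was at 327 to 473 CPM and *Ly6a*, which encodes Sca-1, at 10.5 to 45.1 CPM over the libraries. Of the markers of lineages that the sort should remove, the T-cell gene *Cd3e* was at 0.63 to 1.38 CPM in Tespa1-/- libraries after 5-FU and at 0 to 0.0452 CPM in the other libraries, and the summed level of 8 T and NK cell genes was 57.4 to 66.4 CPM in the former and 28.1 to 40.2 CPM in the latter. *Itgam*, a myeloid surface gene, was at 64.5 to 76.4 CPM in Tespa1-/- libraries after 5-FU and at 18.9 to 35.9 CPM elsewhere. The summed level of 8 B-cell genes was 42.2 to 77 CPM in untreated and 287 to 343 CPM in 5-FU libraries. The Tespa1-/- libraries after 5-FU stood apart. The summed level of 14 neutrophil genes was 1152 to 1156 CPM there against 21.4 to 49.1 CPM in the other 9 libraries, with all 14 above 3 counts in every Tespa1-/- 5-FU library and 3 to 8 of them in the other groups, where *Cd177* was at 0 throughout the untreated libraries and in the 5-FU Tespa1+/+ libraries. The summed level of 10 erythroid genes was 476 to 484 CPM there against 20.9 to 56.4 CPM elsewhere. The summed level of 10 LSK genes was 1624 to 1675 CPM in untreated Tespa1+/+ and 1334 to 1384 CPM in untreated Tespa1-/- libraries, and 1328 to 1369 and 796 to 862 CPM in the same order after 5-FU, so that it was highest in all 3 untreated Tespa1+/+ libraries. Sums of 6 myeloid granule genes and of 10 monocyte and macrophage genes were lower in the Tespa1+/+ than in the Tespa1-/- libraries both without treatment (2599 to 2640 against 3474 to 3667 CPM, and 258 to 300 against 404 to 422 CPM) and after 5-FU (2500 to 2704 against 4593 to 4871 CPM, and 321 to 330 against 459 to 474 CPM). The sum of 6 megakaryocyte and platelet genes was 44.3 to 52 CPM in Tespa1+/+ and 75 to 79.9 CPM in Tespa1-/- libraries without treatment, and 172 to 194 and 249 to 261 CPM after 5-FU. The sum of 6 mast cell and basophil genes was 11.6 to 29.6 CPM in the other 9 libraries and 89.6 to 97.6 CPM in the Tespa1-/- libraries after 5-FU. In such bulk libraries, fewer cells of one type and less RNA per cell cannot be told apart, and the part of these markers in the results was not tested.

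Because STATs bind the palindrome TTCNNNGAA (read the same on both strands, so a match on one is a match on the other), the promoter sequences of the members were searched for it. RefSeq (GRCm38.p6) windows ran from 250 bases before to 50 bases after the annotated start. The set of windows searched covered 6 of the 7 genes and held none for *Socs2*. The windows of 4 members are shown because these are the genes called in a comparison of genotypes, and the capitals mark TTCNNNGAA. *Cish* was called only after 5-FU, a call lost in all 6 fits that left out a library.

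Socs3, chr11:117969317-117969616, minus strand: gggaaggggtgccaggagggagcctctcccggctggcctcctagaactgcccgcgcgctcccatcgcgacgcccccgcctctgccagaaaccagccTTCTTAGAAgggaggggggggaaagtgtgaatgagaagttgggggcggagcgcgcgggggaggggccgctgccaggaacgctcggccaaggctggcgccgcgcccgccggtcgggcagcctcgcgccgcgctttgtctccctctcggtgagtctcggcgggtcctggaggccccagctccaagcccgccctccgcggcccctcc

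Cish, chr9:107296409-107296708, plus strand: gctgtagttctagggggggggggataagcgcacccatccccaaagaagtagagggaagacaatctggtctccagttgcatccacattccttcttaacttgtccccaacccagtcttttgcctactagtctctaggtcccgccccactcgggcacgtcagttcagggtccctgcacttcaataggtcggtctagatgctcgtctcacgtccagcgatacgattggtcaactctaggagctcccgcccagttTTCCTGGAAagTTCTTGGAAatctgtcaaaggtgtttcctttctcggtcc

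Pim1, chr17:29490535-29490834, plus strand: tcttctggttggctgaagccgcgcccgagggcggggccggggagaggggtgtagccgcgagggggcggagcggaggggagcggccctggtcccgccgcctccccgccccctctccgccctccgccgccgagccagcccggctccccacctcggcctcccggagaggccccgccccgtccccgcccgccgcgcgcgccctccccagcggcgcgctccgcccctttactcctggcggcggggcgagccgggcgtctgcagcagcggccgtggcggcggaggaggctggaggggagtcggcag

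Pim3, chr15:88861944-88862243, plus strand: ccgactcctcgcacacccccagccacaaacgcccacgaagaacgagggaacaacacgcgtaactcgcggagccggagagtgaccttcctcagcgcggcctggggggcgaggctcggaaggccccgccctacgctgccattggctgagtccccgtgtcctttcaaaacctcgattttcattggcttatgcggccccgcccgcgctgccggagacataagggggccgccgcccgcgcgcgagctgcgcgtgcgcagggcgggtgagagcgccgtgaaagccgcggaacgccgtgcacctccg

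The *Socs3* window held 1 match, TTCTTAGAA, beginning 154 bases before the annotated start. The *Cish* window held 2, TTCCTGGAA at the start and TTCTTGGAA 11 bases after it. The windows of *Socs3* and *Cish* lie inside the gene spans given below. The starts used are thus internal ones, and these matches do not lie upstream of the outermost start. No match lay in the windows of *Socs1*, *Pim2* and *Pim3* or in either of the 2 windows of *Pim1*. Of all 32851 promoter windows of this length, 8.3% held at least 1 match and 0.457% held 2 or more, so a match is a description of these letters and not evidence of a bound site.

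In position, the 7 genes lie apart, on chromosomes 16 (*Socs1*, GRCm38 10783808 to 10785536, ENSMUSG00000038037), 10 (*Socs2*, 95385362 to 95417180, ENSMUSG00000020027), 11 (*Socs3*, 117966079 to 117970047, ENSMUSG00000053113), 9 (*Cish*, 107296026 to 107302784, ENSMUSG00000032578), 17 (*Pim1*, 29490812 to 29496111, ENSMUSG00000024014), X (*Pim2*, 7878262 to 7883432, ENSMUSG00000031155) and 15 (*Pim3*, 88862186 to 88865718, ENSMUSG00000035828). Exons of *Cish* share 479 bases with the antisense gene *Gm17041* and 261 bases with the opposite-strand pseudogene *Gm17040*, and exons of *Pim1* share 488 bases with the antisense gene *Gm26885*. Because the use of strand in counting is not stated, reads from these stretches cannot be assigned with certainty, and the values of *Cish* and *Pim1* carry that limit. The other 5 members overlap no annotated gene.

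Per length, *Pim1* was the most abundant member in LSKs and *Socs2* the least. In untreated Tespa1+/+ libraries the mean level over the exon length of GENCODE M21 was 187 ± 5.8 RPKM (SD, n = 3) for *Pim1*, 70.3 ± 4.59 RPKM for *Socs3*, the main brake on gp130 and G-CSF receptors, and 30.8 ± 1.24 RPKM for *Pim3*. *Cish*, which restrains STAT5 signalling, followed at 3.66 ± 1.14 RPKM, *Pim2* at 2.74 ± 1.27 RPKM, *Socs1*, a brake on interferon signalling, at 2.31 ± 0.479 RPKM and *Socs2*, a brake on growth hormone signalling, at 0.35 ± 0.0713 RPKM. The library ranges of *Cish*, *Pim2* and *Socs1* overlapped with their neighbour in this order, whereas those of the other neighbours did not. *Pim1*, *Socs3* and *Pim3* kept ranks 1, 2 and 3 and *Socs2* rank 7 in all 4 groups. *Cish* and *Pim2* exchanged ranks 4 and 5 between groups, and *Socs1* kept rank 6. With the gene length implied by the deposited FPKM instead, *Socs1* stood at rank 4 in untreated Tespa1+/+ LSKs at 5.5 ± 1.14 RPKM, ahead of *Cish* at 2.16 ± 0.676 RPKM, while the first 3 ranks and the last stayed as they were.

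**Figure D1:**
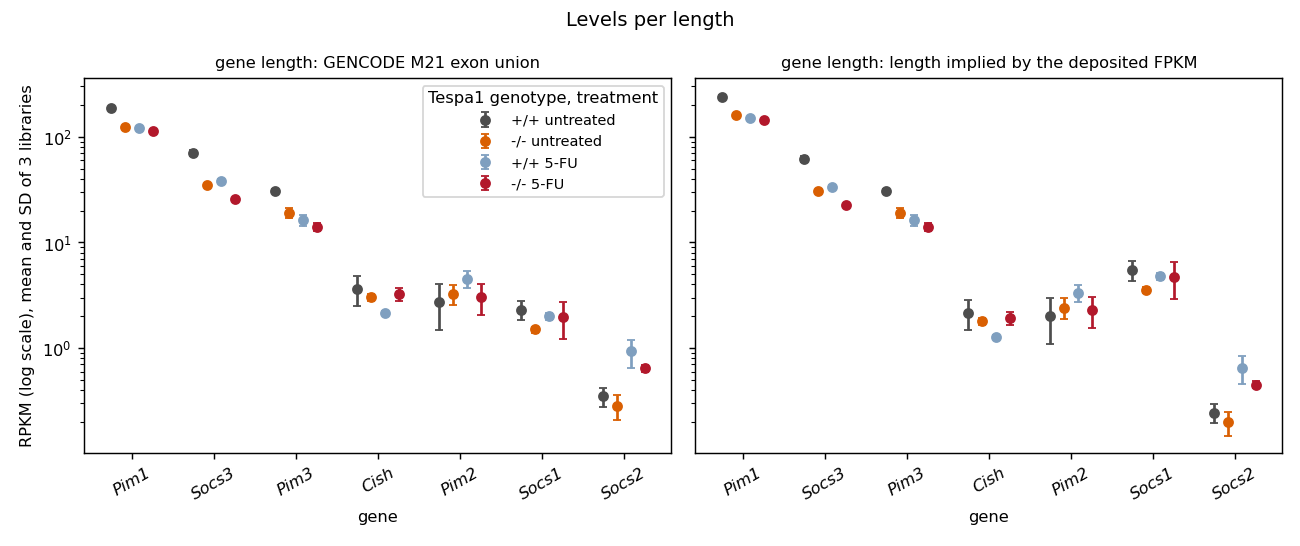
Level per length of the 7 genes, in RPKM on a log axis, with the exon length of GENCODE M21 (left) and the length implied by the deposited FPKM (right). Points and bars are the mean and SD of 3 libraries in each group, and *Pim1*, *Socs3* and *Pim3* hold ranks 1, 2 and 3 in every group on both sides.

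One gene accounted for most of each family. *Pim1* made up 83.4% to 87.5% of the summed PIM level per length in the 12 libraries, *Pim3* 10.1% to 14.4% and *Pim2* 0.75% to 3.56%. Without treatment that sum was 221 ± 6.83 RPKM in Tespa1+/+ and 148 ± 3.15 RPKM in Tespa1-/- LSKs, and at day 9 of 5-FU 140 ± 2.1 and 130 ± 4.68 RPKM (SD, n = 3 each). In the SOCS family, *Socs3* made up 90.9% to 92.5% of the sum in untreated Tespa1+/+ libraries and 77.9% to 84% in Tespa1-/- libraries after 5-FU. The *Cish* share was 7.12% to 7.98% in untreated Tespa1-/- and 4.83% to 5.14% in 5-FU Tespa1+/+ libraries. It was 3.32% to 5.47% in untreated Tespa1+/+ and 9.39% to 11.5% in 5-FU Tespa1-/- libraries. Between the last 2 groups the *Cish* level itself was not higher, at 3.66 ± 1.14 and 3.26 ± 0.446 RPKM. That of *Socs3* was 70.3 ± 4.59 and 25.9 ± 0.434 RPKM. With the length implied by the FPKM, *Cish* made up 2.13% to 3.55% and 6.07% to 7.01%, *Socs1* 5.84% to 9.65% and 11.6% to 21.1%, and *Socs3* 87.8% to 90.2% and 70.5% to 80.7% in these groups, so that the shares of *Cish* and *Socs1* depend on the length used. By exon length, the sum of the 4 SOCS genes was 76.6 ± 5.46 RPKM in untreated Tespa1+/+ and 31.8 ± 0.823 RPKM in 5-FU Tespa1-/- LSKs.

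To examine whether these genes differed with genotype in unperturbed LSKs, the 3 Tespa1-/- and 3 Tespa1+/+ libraries of untreated mice were compared. Of the 7 members, 3, *Socs3*, *Pim1* and *Pim3*, were lower in Tespa1-/- LSKs and 0 were higher, where 3.59% of the 17055 genes tested were lower and 1.64% higher at an adjusted p below 0.05 (edgeR). No member was higher at an unadjusted p below 0.05 or with DESeq2 either. *Socs3* was at 209, 188 and 213 CPM in Tespa1+/+ and at 99.6, 102 and 102 CPM in Tespa1-/- libraries. The Tespa1-/- libraries lay at close to the same value, far below the lowest control, and the fitted level was 1.99-fold lower (log2 fold change -0.99, SE 0.06, adjusted p = 8e-05, edgeR quasi-likelihood test).

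*Pim1* was at 650, 612 and 626 CPM in Tespa1+/+ and at 427, 417 and 419 CPM in Tespa1-/- libraries. The groups were well apart, with a 1.48-fold lower level in Tespa1-/- LSKs (log2 fold change -0.57, SE 0.04, adjusted p = 9.6e-05). *Pim3* was at 77.8, 74.8 and 71.7 CPM in Tespa1+/+ and at 51.9, 45 and 42.1 CPM in Tespa1-/- libraries. This kinase was 1.6-fold lower without overlap between groups (log2 fold change -0.68, SE 0.09, adjusted p = 0.00443). All 3 calls held when each library was left out in turn and in each of 7 other fits. Between the same libraries the LSK sum was lower and the myeloid granule and monocyte sums were higher in Tespa1-/-, as given above. The neutrophil, erythroid, T and NK cell, megakaryocyte and mast cell sums were also higher, and the B-cell sum lower, without overlap. The erythroid sum was 20.9 to 26.3 CPM in Tespa1+/+ and 42.2 to 52.3 CPM in Tespa1-/-, the B-cell sum 65.5 to 77 and 42.2 to 48.2 CPM. The part of these sums in the 3 differences was not tested.

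The remaining 4 members did not pass the test in untreated LSKs. *Socs1* was at 7.37, 7.65 and 5.11 CPM in Tespa1+/+ and at 4.57, 4.03 and 4.46 CPM in Tespa1-/- libraries, so the groups did not overlap, but the fitted log2 fold change of -0.61 had an SE of 0.22 (adjusted p = 0.182). *Cish* was at 27.9, 15 and 27.5 CPM in Tespa1+/+ and at 17.9, 20.5 and 20 CPM in Tespa1-/- libraries. Here 1 control library, replicate 2, lay below all of the Tespa1-/- libraries and the other 2 controls above them, and the log2 fold change was -0.26 (SE 0.22, adjusted p = 0.609). Without that library it was -0.49, still with an adjusted p of 0.0902.

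*Socs2* was at 2.99, 2.89 and 4.12 CPM in Tespa1+/+ and at 3.03, 1.91 and 3.19 CPM in Tespa1-/- libraries (log2 fold change -0.29, SE 0.31, adjusted p = 0.694). *Pim2* was at 7, 4.49 and 11.5 CPM in Tespa1+/+ and at 7.51, 8.47 and 11.4 CPM in Tespa1-/- libraries (log2 fold change 0.26, SE 0.33, adjusted p = 0.741). In both genes the groups overlapped. They were counted with few reads, 43 to 91 per library for *Socs2* and 101 to 261 for *Pim2*, and the coefficient of variation between untreated Tespa1+/+ libraries was 20.4% for *Socs2* and 46.2% for *Pim2*.

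**Figure D2:**
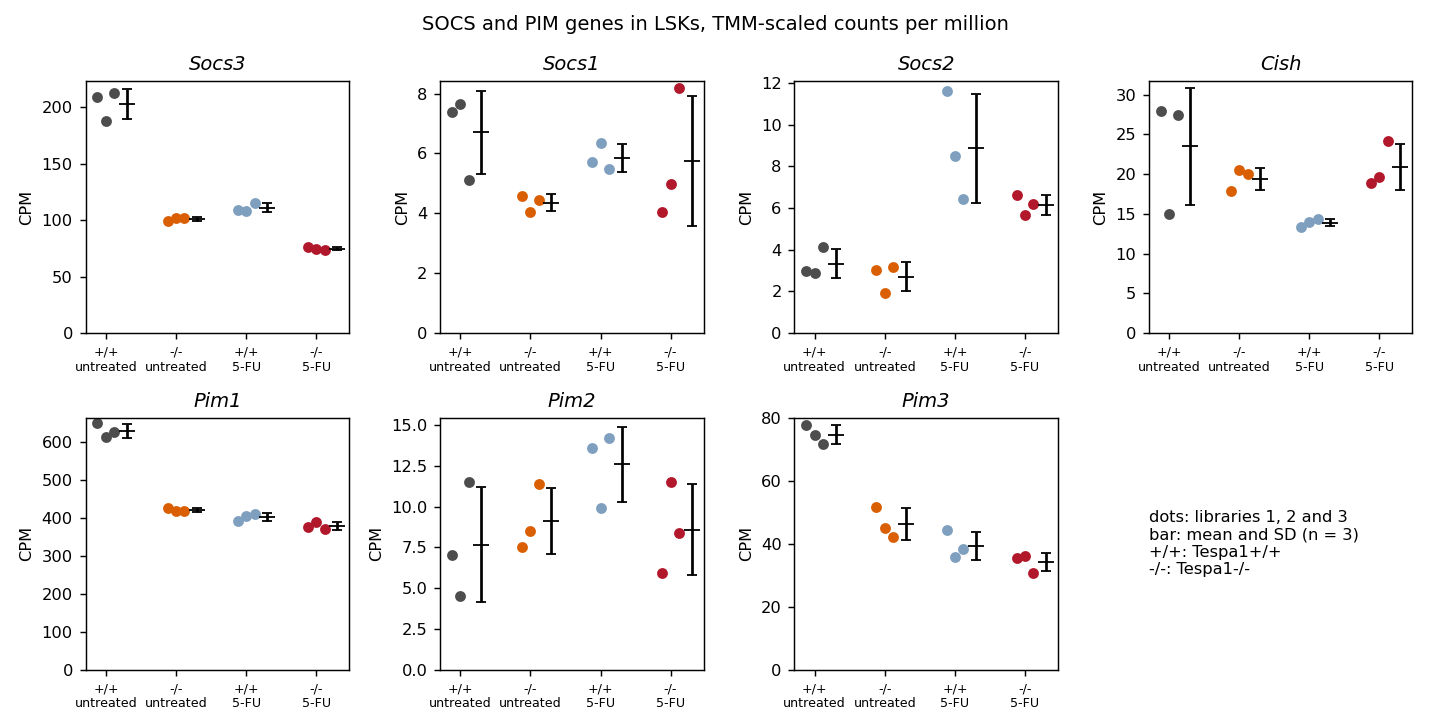
Levels of the 7 genes in each library, in TMM-scaled CPM on a linear axis from 0, with libraries 1, 2 and 3 of a group as dots and their mean and SD beside them. *Socs3*, *Pim1* and *Pim3* were highest in all 3 untreated Tespa1+/+ libraries, *Socs2* was higher after 5-FU in both genotypes, and the dots of *Pim2* overlap between most groups.

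The same comparison at day 9 after 5-FU gave 1 member lower and 1 higher in Tespa1-/- LSKs, where 5.78% of the 17239 genes tested were lower and 7.34% higher. *Socs3* was again lower, at 109, 108 and 115 CPM in Tespa1+/+ and at 76.2, 74.7 and 73.7 CPM in Tespa1-/- libraries. The groups were apart, with a 1.48-fold lower level (log2 fold change -0.57, SE 0.07, adjusted p = 0.00055), and the call held in all 6 fits that left out a library and in 7 other fits. *Cish* went the other way, at 13.4, 14 and 14.3 CPM in Tespa1+/+ and at 18.9, 19.6 and 24.2 CPM in Tespa1-/- libraries. It was 1.5-fold higher without overlap (log2 fold change 0.59, SE 0.15, adjusted p = 0.034), but the call was lost in all 6 fits that left out a library (log2 fold change 0.47 to 0.66, adjusted p = 0.0536 to 0.124).

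*Pim1* was at 391, 405 and 410 CPM in Tespa1+/+ and at 377, 390 and 370 CPM in Tespa1-/- libraries after 5-FU. The groups touched without overlapping, and the difference did not pass the test (log2 fold change -0.08, SE 0.04, adjusted p = 0.261). *Pim3* was at 44.5, 35.8 and 38.4 CPM against 35.5, 36.1 and 30.8 CPM, with overlap (log2 fold change -0.21, SE 0.12, adjusted p = 0.317). *Socs2* was at 11.6, 8.51 and 6.42 CPM in Tespa1+/+ and at 6.6, 5.66 and 6.17 CPM in Tespa1-/- libraries. Its lowest Tespa1+/+ library fell within the Tespa1-/- range (log2 fold change -0.53, SE 0.25, adjusted p = 0.223).

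*Pim2* was at 13.6, 9.93 and 14.2 CPM in Tespa1+/+ and at 5.91, 11.5 and 8.37 CPM in Tespa1-/- libraries after 5-FU (log2 fold change -0.55, SE 0.26, adjusted p = 0.225). *Socs1* was at 5.72, 6.35 and 5.47 CPM and at 4.06, 4.97 and 8.19 CPM (log2 fold change -0.03, SE 0.29, adjusted p = 0.963). In *Socs1*, 1 Tespa1-/- library, replicate 3, lay above all the others and 2 below. The neutrophil and erythroid sums given above for the Tespa1-/- libraries after 5-FU stand beside each of these values.

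Whether the genotype difference itself changed with 5-FU was tested by the interaction of genotype and treatment over the 12 libraries. It was positive and passed the test for 2 members and negative for 0, where 3.02% of the 18696 genes tested passed with a positive and 1.99% with a negative term. The 0 stayed 0 at an unadjusted p below 0.05 and with DESeq2. For *Socs3* the deficit of Tespa1-/- LSKs was smaller after 5-FU by 0.43 on the log2 scale (SE 0.08, adjusted p = 0.0093). For *Pim1* the deficit was smaller by 0.49 (SE 0.05, adjusted p = 0.00014). Both terms held in all 12 fits that left out a library. *Pim3* had a term of similar size, 0.47, with a larger error (SE 0.15, adjusted p = 0.0951).

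The largest fitted term of the 7 was that of *Cish*, 0.85 (SE 0.28, adjusted p = 0.112), and it passed only without untreated Tespa1+/+ replicate 2, at 1.08 (adjusted p = 0.00767). The terms of *Socs1* (0.59, SE 0.37, adjusted p = 0.448), *Socs2* (-0.24, SE 0.39, adjusted p = 0.816) and *Pim2* (-0.81, SE 0.46, adjusted p = 0.389) did not pass and had the 3 largest errors.

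**Figure D3:**
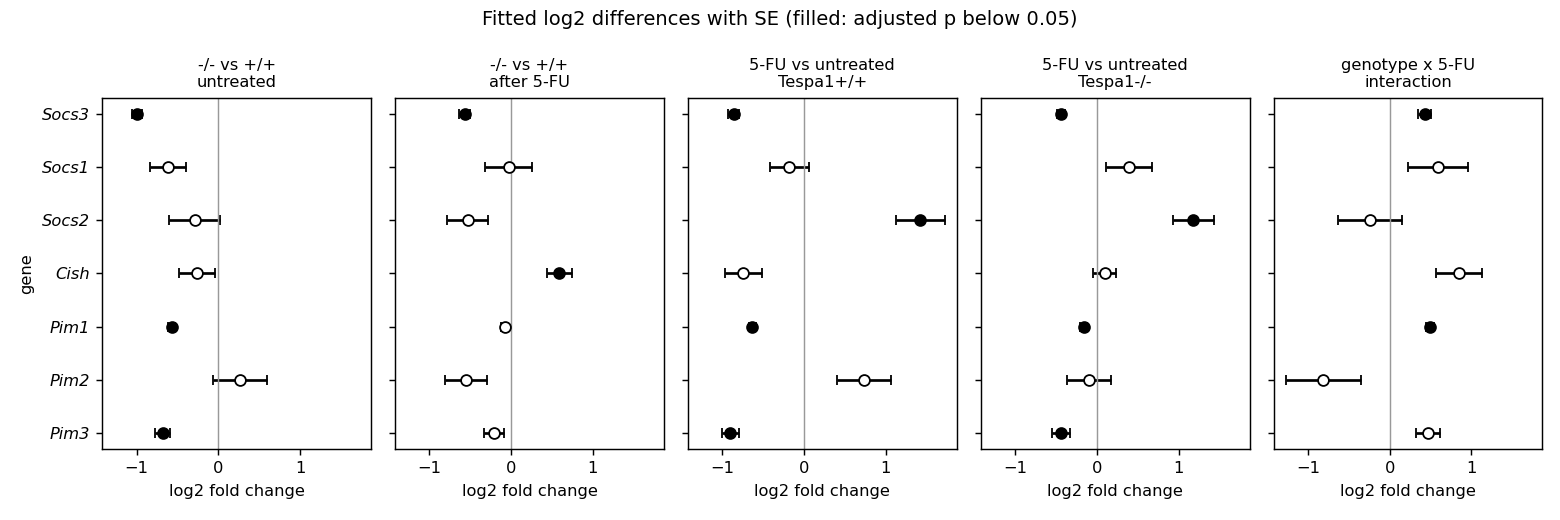
Fitted log2 fold changes of the 7 genes with their SE in the 4 comparisons of 6 libraries each and in the interaction over 12 libraries, filled where the adjusted p was below 0.05. *Socs3* lies left of 0 in every comparison of 2 groups, *Socs2* lies right of 0 after 5-FU in both genotypes, and *Cish* lies right of 0 in Tespa1-/- against Tespa1+/+ after 5-FU, at 0.59.

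The response of the members to 5-FU was then compared within each genotype, with the caution that these comparisons share libraries with those of the genotypes. In Tespa1+/+ LSKs 3 members were lower and 1 higher at day 9 than untreated, where 4.18% of the 17002 genes tested were lower and 3.77% higher. With the library values given above, *Socs3* was 1.81-fold lower (log2 fold change -0.86, SE 0.07, adjusted p = 0.00011). *Pim1* was 1.55-fold lower (log2 fold change -0.63, SE 0.04, adjusted p = 4.1e-05) and *Pim3* 1.87-fold lower (log2 fold change -0.90, SE 0.10, adjusted p = 0.00093). None of the 3 overlapped between groups, and all held in every fit that left out a library.

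*Socs2* was the member that rose, 2.68-fold, from 2.89 to 4.12 CPM in untreated libraries to 6.42 to 11.6 CPM (log2 fold change 1.42, SE 0.30, adjusted p = 0.0193). The groups did not overlap, but the call was lost in 4 of 6 fits that left out a library (adjusted p up to 0.0836), those without untreated Tespa1+/+ replicate 1 or 2 or without 5-FU Tespa1+/+ replicate 1 or 2. *Cish* was lower in all 5-FU libraries than in any untreated one, but the difference did not pass the test (log2 fold change -0.74, SE 0.23, adjusted p = 0.0909). Without untreated Tespa1+/+ replicate 2 it was -0.97 and passed (adjusted p = 0.0115), as it did with DESeq2 (adjusted p = 0.0269) and with the 12 libraries in one fit (adjusted p = 0.0298). *Pim2* (log2 fold change 0.73, SE 0.33, adjusted p = 0.241) and *Socs1* (log2 fold change -0.18, SE 0.24, adjusted p = 0.734) overlapped between groups. Between the same libraries the LSK sum was lower and the B-cell and megakaryocyte sums higher after 5-FU, as given above. The neutrophil, monocyte, erythroid, T and NK cell and mast cell sums were also higher without overlap. The erythroid sum was 20.9 to 26.3 CPM untreated and 43 to 56.4 CPM after 5-FU, the mast cell sum 11.6 to 16.3 and 27 to 29.6 CPM. The part of these sums in the differences was not tested.

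In Tespa1-/- LSKs, too, 3 members were lower and 1 higher after 5-FU, where 8.64% of the 17228 genes tested were lower and 10.7% higher. *Socs2* was higher, from 1.91 to 3.19 CPM in untreated to 5.66 to 6.6 CPM in 5-FU libraries, a 2.26-fold rise without overlap (log2 fold change 1.18, SE 0.25, adjusted p = 0.0112) that held in all 6 fits that left out a library. *Socs3* was 1.36-fold lower (log2 fold change -0.44, SE 0.05, adjusted p = 0.00072), also in all 6. *Pim3* was 1.36-fold lower as well (log2 fold change -0.44, SE 0.11, adjusted p = 0.0199), but the call was lost without untreated Tespa1-/- replicate 1 or 2 or 5-FU Tespa1-/- replicate 3 (adjusted p up to 0.0814).

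*Pim1* was only 1.11-fold lower (log2 fold change -0.16, SE 0.04, adjusted p = 0.0218), a call lost in 5 of 6 fits that left out a library (adjusted p up to 0.0867), all but the one without 5-FU Tespa1-/- replicate 2. *Cish* (log2 fold change 0.10, SE 0.14, adjusted p = 0.666), *Pim2* (log2 fold change -0.09, SE 0.27, adjusted p = 0.852) and *Socs1* (log2 fold change 0.39, SE 0.28, adjusted p = 0.383) did not pass and overlapped between groups. The LSK sum was lower in the 5-FU than in the untreated Tespa1-/- libraries. The neutrophil, myeloid granule, monocyte, erythroid, B-cell, T and NK cell, megakaryocyte and mast cell sums were higher. The part of these sums in the differences was not tested.

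The levels of *Socs3*, *Pim1* and *Pim3* relative to the untreated Tespa1+/+ mean bring these comparisons together. *Socs3* stood at 49% to 50.4% of that mean in untreated Tespa1-/- libraries, at 53.1% to 56.7% in Tespa1+/+ libraries after 5-FU and at 36.3% to 37.5% when both applied. *Pim1* stood at 66.2% to 67.9%, 62.1% to 65.1% and 58.8% to 61.9% in the same groups. *Pim3* stood at 56.3% to 69.4%, 47.8% to 59.4% and 41.2% to 48.3%. The untreated Tespa1-/- and the 5-FU Tespa1+/+ groups thus lay nearer to each other than to untreated Tespa1+/+ in all 3 genes. Over the 12 libraries the Pearson correlation of log2(CPM + 1) was 0.95 between *Socs3* and *Pim1*, 0.92 between *Socs3* and *Pim3* and 0.95 between *Pim1* and *Pim3*, and between -0.54 and 0.46 for every other pair of members. These 12 points share 4 group means, so the values describe the pattern of the groups.

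A similar order was seen in 24 early-response genes, transcripts such as *Fosl2*, *Atf3* and *Dusp5* that are induced within minutes by many signals and also by cell handling. Without treatment their summed level was 13283 to 13944 CPM in Tespa1+/+ libraries and 9074 to 9259 CPM, or 66.5% to 67.8% of the Tespa1+/+ mean, in Tespa1-/- libraries. After 5-FU the sum was 8711 to 8757 CPM (63.8% to 64.1%) in the former and 7167 to 7370 CPM (52.5% to 54%) in the latter genotype. Each count of 0 given for these and the following lists was also 0 with DESeq2, and 0 to 2 genes stood behind it at an unadjusted p below 0.05 in edgeR. Of the 24, 21 fell and 0 rose in untreated Tespa1-/- LSKs (median log2 fold change -0.65 against 0.01 over all genes tested), and 13 fell and 0 rose in Tespa1-/- LSKs after 5-FU (median -0.28 against -0.01). In these comparisons 3.59% and 5.78% of all genes tested were lower and 1.64% and 7.34% higher. With 5-FU, 20 fell and 0 rose in Tespa1+/+ LSKs (median -0.82 against 0.01) and 17 fell and 0 rose in Tespa1-/- LSKs (median -0.31 against -0.01). Of all genes tested, 4.18% and 8.64% fell and 3.77% and 10.7% rose in the same order. The interaction was positive for 12 and negative for 0, next to 3.02% and 1.99% of all genes tested. The largest falls were those of *Fosl2*, an AP-1 subunit, in untreated Tespa1-/- LSKs (349 ± 9.36 against 137 ± 4.95 CPM, log2 fold change -1.34, adjusted p = 6.7e-06) and of *Atf3*, a stress-response factor, with 5-FU in Tespa1+/+ LSKs (140 ± 12.6 against 49.5 ± 12.6 CPM, log2 fold change -1.48, adjusted p = 0.00074). Whether these genes and *Socs3*, *Pim1* and *Pim3* moved for a common reason was not tested.

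**Figure D4:**
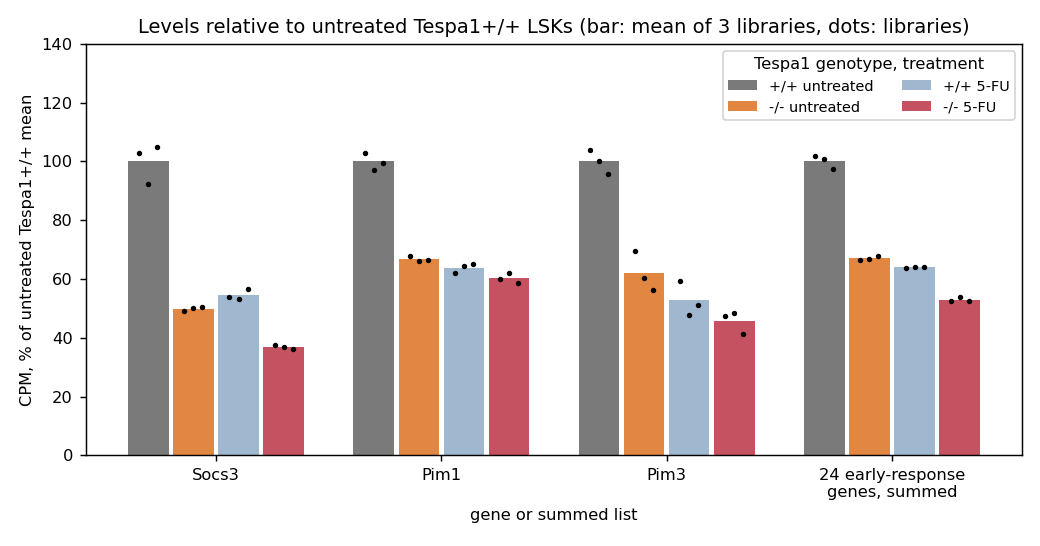
Levels of *Socs3*, *Pim1*, *Pim3* and the sum of 24 early-response genes as a percentage of the untreated Tespa1+/+ mean, with bars for the mean of 3 libraries and dots for the libraries. Untreated Tespa1-/- and 5-FU Tespa1+/+ bars stand close together, and *Socs3* is lowest after both, at 36.3% to 37.5%.

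The genes most like each member in pattern over the 12 libraries, among 14933 genes with a mean of at least 1 CPM, differed between members. Those nearest to *Socs3* were *Marcksl1*, with a Pearson r of 0.994 (310 CPM in Tespa1+/+ and 141 CPM in mutants without treatment, 159 and 110 CPM in the same order after 5-FU), and *Msl2*, a chromatin-complex subunit, with 0.993. Those nearest to *Pim1* were *Junb*, an AP-1 subunit and an early-response gene (0.988, at 792, 428, 420 and 349 CPM), and *Zc3h12a*, an RNase that degrades inflammatory transcripts (0.984). Those nearest to *Pim3* were *Ptgs2*, a prostaglandin synthase (0.972, at 87.4, 38.2, 25.8 and 18.5 CPM), and *Malt1*, a signalling protease of the NF-κB pathway (0.969). The pattern of *Socs2* was nearest to those of *Utrn* (0.958) and *B3gnt7* (0.951), that of *Cish* to *Gm9824* (0.912) and *Cryl1* (0.891), that of *Socs1* to *Polr3d* (0.918) and *Gm19412* (0.917), and that of *Pim2* to *Gm12129* (0.922) and *Mrgbp* (0.918). These values are the highest of many and carry no test.

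Upstream of the members, 25 cytokine receptor genes were examined as a list. In untreated Tespa1-/- LSKs 1 of 25 rose and 1 fell (median log2 fold change 0.12 against 0.01 over all genes tested), next to 1.64% of all genes higher and 3.59% lower, so these counts do not set the list apart: *Lifr*, a receptor chain for LIF, rose from 5.13 ± 1.24 to 12.9 ± 4.51 CPM (log2 fold change 1.35, adjusted p = 0.0339), and *Il2rg*, the common gamma chain, fell from 76.7 ± 5.7 to 52.6 ± 6.37 CPM (log2 fold change -0.53, adjusted p = 0.0215). After 5-FU 4 of 24 tested were higher and 2 lower in Tespa1-/- LSKs (median -0.08 against -0.01), with 7.34% of all genes higher and 5.78% lower. *Epor*, the erythropoietin receptor, averaged 5.94 ± 0.723 CPM in controls against 15.9 ± 0.387 CPM in mutants (log2 fold change 1.42, adjusted p = 0.00087). *Epor* is also one of the 10 erythroid genes whose sum was higher in the same libraries.

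With 5-FU, 5 receptor genes rose and 1 fell of 24 in Tespa1+/+ LSKs (median -0.02 against 0.01), where 3.77% of all genes rose and 4.18% fell. In Tespa1-/- LSKs 5 rose and 7 fell (median -0.05 against -0.01), where 10.7% of all genes rose and 8.64% fell. These shares of all genes are the background for the counts of each list that follows. *Il4ra* had the largest fall in the former, from 119 ± 6.98 to 84.1 ± 4.45 CPM (log2 fold change -0.48, adjusted p = 0.00573), and *Il10rb*, a shared chain of the IL-10 receptor family, in the latter, from 47 ± 1.26 to 27.6 ± 6.81 CPM (log2 fold change -0.77, adjusted p = 0.0114).

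Of 11 JAK and STAT genes, 2 fell and 0 rose in untreated Tespa1-/- LSKs (median -0.08 against 0.01), and 4 fell and 0 rose in Tespa1-/- LSKs after 5-FU (median -0.15 against -0.01), with 3.59% and 5.78% of all genes lower in these comparisons. The STAT5 genes, which encode the main activators of *Cish*, *Socs2* and *Pim1* in other settings, were in neither set, but *Stat5a* was 1 of the 2 genes that rose with 5-FU in each genotype. *Stat4* averaged 56.5 ± 6.69 CPM in controls against 29.5 ± 1.63 CPM in mutants after 5-FU (log2 fold change -0.94, adjusted p = 0.00075). With 5-FU, 2 rose and 0 fell in Tespa1+/+ LSKs (median 0.15 against 0.01), and 2 rose and 3 fell in Tespa1-/- LSKs (median 0.01 against -0.01).

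Other negative regulators were examined as well. Of 17 such genes, among them *Socs4* to *Socs7*, PIAS proteins and phosphatases, 0 passed in untreated LSKs (median 0.03 against 0.01). After 5-FU 3 were lower and 0 higher in Tespa1-/- LSKs (median -0.04 against -0.01). *Socs6*, a family member that targets receptor tyrosine kinases, had the largest fall, from 28.5 ± 1.7 to 13.1 ± 4.97 CPM (log2 fold change -1.13, adjusted p = 0.0148). *Usp18*, an interferon-induced brake on the interferon receptor, was the 1 gene of the 17 that rose with 5-FU in Tespa1+/+ LSKs (44.3 ± 3.14 to 64.8 ± 3.68 CPM, log2 fold change 0.57, adjusted p = 0.00674, list median 0.11 against 0.01), and the 1 that fell in Tespa1-/- LSKs (47 ± 3.12 to 36.6 ± 0.707 CPM, log2 fold change -0.36, adjusted p = 0.0138), where *Ptpn1*, a phosphatase of JAK2, rose from 67.6 ± 4.75 to 88.2 ± 6.3 CPM (log2 fold change 0.38, adjusted p = 0.0102, list median -0.05 against -0.01). Of 8 genes for the ubiquitin ligase that the SOCS box recruits, 0 passed in 3 of the comparisons (median log2 fold changes -0.07, -0.01 and -0.07 against 0.01, -0.01 and 0.01 over all genes), and in Tespa1-/- LSKs with 5-FU only *Nedd8* did, rising from 49.3 ± 0.824 to 62 ± 3.75 CPM (log2 fold change 0.33, adjusted p = 0.0139, list median 0.04 against -0.01).

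Other targets of STAT5 and STAT3 moved in both directions. In untreated Tespa1-/- LSKs 6 of 17 tested were lower and 1 higher (median -0.20 against 0.01). *Lif*, a cytokine that signals through gp130, averaged 44.3 ± 12.1 CPM in controls against 10.4 ± 6.05 CPM in mutants (log2 fold change -2.07, adjusted p = 0.0348), and *Myc*, a driver of growth and proliferation, at 143 ± 17.2 and 193 ± 14 CPM (log2 fold change 0.44, adjusted p = 0.0363). After 5-FU 5 of 18 were lower and 3 higher in Tespa1-/- LSKs (median -0.08 against -0.01), next to 5.78% of all genes lower and 7.34% higher, with *Bcl2*, a survival gene, from 147 ± 9.17 to 98.4 ± 5.02 CPM (log2 fold change -0.58, adjusted p = 0.0008) and *Gfi1b*, an erythroid and megakaryocyte repressor, from 15 ± 1.38 to 25.7 ± 3.75 CPM (log2 fold change 0.78, adjusted p = 0.0103). The erythroid and megakaryocyte sums were higher in the same libraries. With 5-FU, 5 fell and 1 rose in Tespa1+/+ LSKs (median -0.07 against 0.01) and 5 fell and 4 rose in Tespa1-/- LSKs (median 0.11 against -0.01).

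Most genes for cytokines themselves had too few counts to test in LSKs, with 5 of 17 tested in the 2 comparisons without Tespa1-/- 5-FU libraries and 8 of 17 in the others. *Tnf* was the 1 gene that fell in untreated Tespa1-/- LSKs, from 50.9 ± 5.46 to 25.1 ± 1.75 CPM (log2 fold change -1.01, adjusted p = 0.00169, list median -0.49 against 0.01), and the 1 that fell with 5-FU in Tespa1+/+ LSKs, to 17.6 ± 4.02 CPM (log2 fold change -1.52, adjusted p = 0.00109, list median 0.16 against 0.01). *Ifng*, *Il1b* and *Il6* passed the filter on low counts only where Tespa1-/- libraries after 5-FU were included, so no direction is read from them or from the list in those comparisons. Among these, *Il6* averaged 2.25 ± 0.701 CPM in mutants and 0.143 ± 0.214 CPM in controls after 5-FU, the latter a mean near the limit of detection.

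Interferon-stimulated genes, a readout of the pathway that *Socs1* and *Usp18* restrain, differed between genotypes after 5-FU. Of 20, 17 were lower and 0 higher in Tespa1-/- LSKs (median -0.83 against -0.01), where in untreated LSKs 1 was lower and 0 higher (median 0.00 against 0.01). The interaction was negative for 13 and positive for 0, next to 1.99% and 3.02% of all genes tested. *Ifit3*, an antiviral gene, averaged 56.1 ± 1.21 CPM in controls against 10.4 ± 1.21 CPM in mutants after 5-FU (log2 fold change -2.43, adjusted p = 4.1e-06). With 5-FU, 13 rose and 0 fell in Tespa1+/+ LSKs (median 0.63 against 0.01), and 10 fell and 0 rose in Tespa1-/- LSKs (median -0.30 against -0.01). Over the same libraries *Socs1* stayed between 4.03 and 8.19 CPM and passed no test at an adjusted p below 0.05.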

How the data were processed

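RNA-seq counts of LSKs were analysed in 4 groups of 3 libraries, grouped by the labels. The authors deposited, for 53465 genes, unnormalized read counts, and FPKM values computed from the same counts, used here only for the gene length they imply. Libraries were poly-A selected, stranded and paired-end per the labels. The submitters' processing notes name CASAVA 1.8, HISAT2, StringTie and edgeR with GRCm38, but which tool counted the reads and whether strand was used is not given in the sources used here.

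Counts were tested with edgeR 4.0.16 in R 4.3.3 (filterByExpr with a minimum count of 10, TMM, glmQLFit and glmQLFTest), with a single factor, the group, fitted to the 6 libraries compared, and with an interaction term on all 12. P-values were adjusted by the Benjamini-Hochberg method over all genes tested, a gene was called at an adjusted p below 0.05, and all p-values in the text come from this test unless DESeq2 1.42.0 is named. The SE was derived from the log2 fold change and the F statistic. CPM used TMM factors over the 12 libraries. RPKM was planned with the length implied by the FPKM, but for 564 of the 8529 genes that reached 200 counts in each library that length exceeds the genomic span, so exon lengths of GENCODE M21 were used, a choice made after seeing the data. Of the table's genes, 53274 were found in M21. The fits were also run on simulated counts with known changes before use. Figures were drawn with matplotlib 3.10.9.

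The members and the gene lists were chosen with earlier results of these data known, so no list is independent evidence. Named beside the members were, per list and comparison, the genes with the largest rise and fall among those called with a mean of at least 1 CPM, and the 2 genes nearest to each member by Pearson correlation. Some genes that this rule names are not reported here. The alternatives were RLE factors, library totals, no filter, at least 10 counts in every library, DESeq2, the replicate number as a block, a joint fit of the 12 libraries, thresholds with a fold change above 1.5, and leaving out each library. The labels give no batch. No pair of replicates was a copy of 1 library: the median chi-square per gene ran from 2.08 to 5.87. This check cannot tell libraries of separate mice from separate libraries of the same RNA.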

Additional observations from a re-analysis of the deposited data

Results flagged for a closer look

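The genotype difference of *Socs3* and of *Pim1* differed between untreated mice and mice at day 9 after 5-FU, by the test of the interaction itself. The term was 0.43 on the log2 scale for *Socs3* and 0.49 for *Pim1*, each higher than 0 in all 12 fits that left out a library. The neutrophil, erythroid and LSK marker sums differed between the same groups, and their part in these terms was not tested.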

How the results depend on the processing

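Of 490 log2 fold changes of members under an alternative, 456 kept their direction and side of the threshold, 23 lost the call, 4 gained one and 7 changed sign. All 7 that changed sign were in genes that did not pass the test and arose on leaving out a library, over which the log2 fold change ran from -0.00264 to 0.68 for *Pim2* between untreated genotypes, from -0.37 to 0.17 for *Socs1* between genotypes after 5-FU, and with 5-FU in Tespa1-/- LSKs from -0.02 to 0.17 for *Cish* and from -0.36 to 0.12 for *Pim2*. Leaving out a library gave 0 to 0 members higher and 3 to 3 lower between untreated genotypes, 0 to 0 higher and 1 to 1 lower between genotypes after 5-FU, 0 to 1 higher and 3 to 4 lower with 5-FU in Tespa1+/+, 1 to 1 higher and 1 to 3 lower with 5-FU in Tespa1-/-, and 2 to 3 positive interaction terms. With a fold change above 1.5 also required, 2 members were lower between untreated genotypes, without *Pim1*, 0 members were lower between genotypes after 5-FU, 0 lower with 5-FU in Tespa1-/- and 0 interaction terms were called. With the thresholds of the study's methods, a fold change above 1.5 with an unadjusted p below 0.05, these counts were 3 (*Socs3*, *Pim3* and *Socs1*, without *Pim1*), 0, 0 and 1 (*Cish*). With the 12 libraries in one fit, 0 members were higher between genotypes after 5-FU (*Cish*, adjusted p = 0.0674).

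The replicate numbers did not pair the libraries, since same-numbered libraries correlated at -0.05 to 0.03 in their deviations. With the replicate number as a block, 0 members were higher between genotypes after 5-FU (*Cish*, adjusted p = 0.0654) and 0 with 5-FU in Tespa1+/+ (*Socs2*, adjusted p = 0.0623), and *Pim1* was no longer called with 5-FU in Tespa1-/- (adjusted p = 0.0518), nor without a filter on low counts (adjusted p = 0.0558). The cause of these changes was not tested. *Socs1*, *Socs2* and *Pim2* had 43 to 349 counts per library and coefficients of variation of up to 37.8%, 29.6% and 46.2% within a group.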
